A study of Mus musculus with 20 samples.

Results

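The genes described here are 9 markers of the striatum measured in the hippocampus of adult mice: Drd1, Drd2, Adora2a, Ppp1r1b, Penk, Tac1, Rgs9, Pde10a and Six3. They were taken by symbol from a list of genes known to mark striatal neurons. All 9 were found among the 48709 genes of the count table, and all 9 were among the 19797 genes that passed a filter on low counts. The right hippocampus of 20 C57BL/6J mice (C57BL/6 in the labels) was profiled by RNA-seq, with 5 mice in each of 4 groups. Control females and control males were offspring of dams that breathed filtered air. nPM females and nPM males were offspring of dams that breathed nPM, a nano-sized fraction of urban particulate matter, from gestational day 2 until birth, 3 days a week and 5 h a day. The study's methods give the dose as 300 μg/m3, and the labels give the same number in mg/m3. Females were 17.71 to 18.29 weeks old and males 18.57 to 19.14 weeks, so sex and age cannot be told apart. Males of the study had also received EdU, a thymidine analog that marks dividing cells, before tissue collection, and all brains were perfused with saline. The question was how much the striatal markers differed between samples of a tissue that is not striatum, whether they varied together, and whether they differed with gestational nPM.

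The striatum lies in front of the hippocampus, and most of its neurons are medium spiny neurons. One class of these carries the dopamine D1 receptor (Drd1), which raises cAMP, and makes substance P from Tac1. The other carries the dopamine D2 receptor (Drd2), which lowers cAMP, together with the adenosine receptor encoded by Adora2a, and makes enkephalin from Penk. DARPP-32 (Ppp1r1b) is an inhibitor of protein phosphatase 1 that is switched by cAMP signalling, Pde10a breaks down cyclic nucleotides, Rgs9 speeds the switching off of receptor-coupled G proteins, and Six3 is a homeodomain transcription factor of the forebrain. The hippocampus has its own, lower expression of several of these genes, for example of Drd1 in granule cells and of Penk and Tac1 in subsets of neurons.

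RefSeq promoter entries of build GRCm38.p6, the same build as mm10, matched 6 of the 9 genes. Adora2a, Ppp1r1b and Penk were the others. The 250 bases before the start are shown for Drd1 and Tac1 and for Drd2 and Six3, pairs that varied together across samples as described below. Capitals mark a cAMP response element half-site (TGACG, or CGTCA on the other strand) and a GC box (GGGCGG, or CCGCCC on the other strand).
Drd1, chr13:54055659-54055908, - strand: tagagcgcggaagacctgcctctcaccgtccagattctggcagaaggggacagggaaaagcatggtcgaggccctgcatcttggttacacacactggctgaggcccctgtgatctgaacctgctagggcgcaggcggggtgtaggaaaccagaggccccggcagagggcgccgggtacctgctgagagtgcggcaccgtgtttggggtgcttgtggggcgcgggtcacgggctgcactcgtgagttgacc
Tac1, chr6:7554811-7555060, + strand: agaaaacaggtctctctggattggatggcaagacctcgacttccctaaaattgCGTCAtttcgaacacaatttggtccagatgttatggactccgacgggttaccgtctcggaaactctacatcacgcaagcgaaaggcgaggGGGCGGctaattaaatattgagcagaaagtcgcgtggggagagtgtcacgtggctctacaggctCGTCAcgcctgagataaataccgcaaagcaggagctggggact
Drd2, chr9:49340153-49340402, + strand: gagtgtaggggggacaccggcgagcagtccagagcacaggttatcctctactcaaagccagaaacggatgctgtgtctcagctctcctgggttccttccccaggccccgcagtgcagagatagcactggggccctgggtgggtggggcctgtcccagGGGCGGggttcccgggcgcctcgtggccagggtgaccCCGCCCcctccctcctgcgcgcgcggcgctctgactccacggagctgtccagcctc
Six3, chr17:85620584-85620833, + strand: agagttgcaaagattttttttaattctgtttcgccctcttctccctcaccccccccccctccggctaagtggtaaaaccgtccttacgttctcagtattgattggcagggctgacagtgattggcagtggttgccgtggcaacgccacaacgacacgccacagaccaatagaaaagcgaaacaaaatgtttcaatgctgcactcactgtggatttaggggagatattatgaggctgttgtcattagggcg
Tac1 held 2 half-sites and 1 GC box, Drd2 held 0 half-sites and 2 GC boxes, and the Drd1 and Six3 windows shown held 0 of either. Drd1 has a second RefSeq start, whose window (not shown) held 0 half-sites, 1 GC box and 5 CG dinucleotides. Of 32851 RefSeq promoters cut to the same length, 17.8% held at least 1 half-site and 32.7% at least 1 GC box. The 4 windows shown held 15 (Drd1), 17 (Tac1), 15 (Drd2) and 10 (Six3) CG dinucleotides, where the median promoter held 6. A match is a description of these letters and was not tested as a binding site.

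Between 19092067 and 38663408 reads per sample were counted on genes. Levels are given in CPM, counts scaled to library size after TMM, and log2 levels have 0.5 added to each count. Markers of the labelled tissue were present in every sample, with summed levels of 266 to 647 CPM for 11 dentate gyrus genes, 363 to 585 CPM for 6 CA1 genes and 270 to 409 CPM for 9 CA3 and CA2 genes. In bulk tissue, more cells of a type and more RNA per cell cannot be told apart. One sample, nPM female 1, stood apart in the striatal markers, so the main results that rest on it are given with and without it. It was picked by its levels in these same genes, so p-values without it are descriptive.

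Per length of gene (RPKM, counts scaled to gene length and library size), the median over the 19 samples other than nPM female 1 was highest for Penk at 8.87, Ppp1r1b at 7.78 and Pde10a at 7.14. Lower medians were found for Tac1 at 1.91, Drd1 at 1.84 and Rgs9 at 1.68 RPKM. The lowest were Drd2 at 0.652, Adora2a at 0.323 and Six3 at 0.0401 RPKM. The ranges of neighbours in this order overlapped, except that Pde10a in its lowest sample was above Tac1 in its highest. The order was not the same in nPM female 1, where Penk was at 58.7, Ppp1r1b at 39.5, Pde10a at 19.8, Drd1 at 9.23, Rgs9 at 8.15, Tac1 at 5.78, Adora2a at 5.30, Drd2 at 4.86 and Six3 at 0.364 RPKM.

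All 9 markers had their highest level of the 20 samples in nPM female 1. The fold of that sample over the median of the other 19 was 16.1 for Adora2a, 8.67 for Six3, 7.54 for Drd2, 6.34 for Penk, 4.86 for Ppp1r1b, 4.83 for Drd1, 4.64 for Rgs9, 3.08 for Tac1 and 2.73 for Pde10a. Against the highest of the other 19 samples, the fold was between 1.4 and 6.05 in 8 genes and 1.01 in Six3. As background, nPM female 1 was the highest sample and over 2-fold the median of the other 19 in 482 of 19797 genes, or 2.43%. The same held in 25 to 997 genes of each other sample. As all 9 markers were highest in nPM female 1, none of them could count in another sample.

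**Figure D1:**
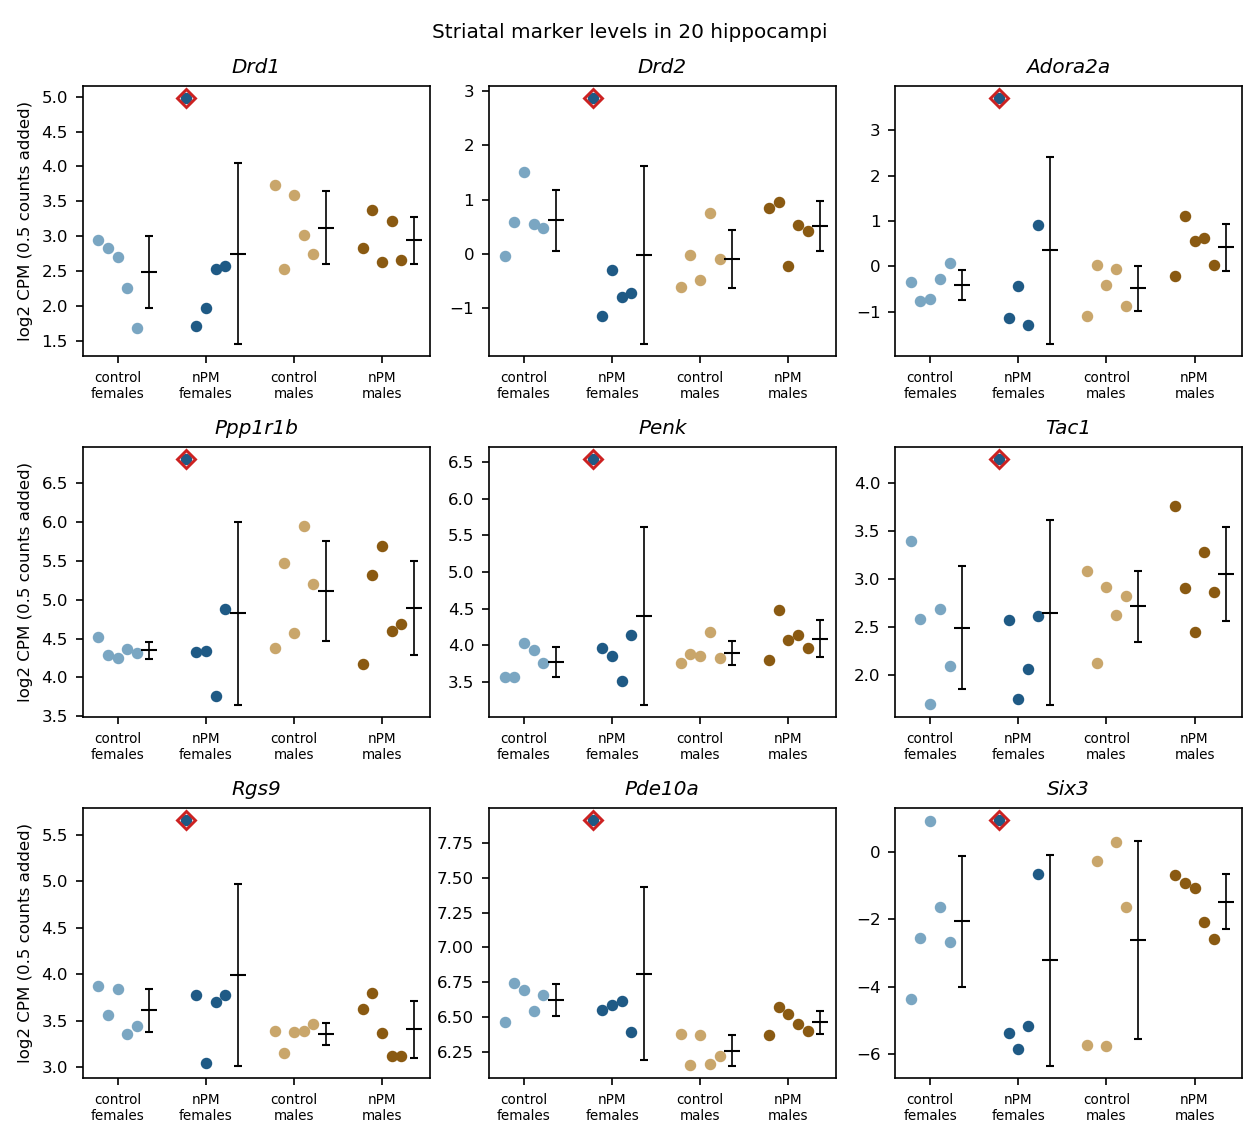
Level of each of the 9 striatal markers (y axis, log2 CPM with 0.5 counts added, a separate scale per gene) in each of the 20 hippocampi (points, 5 per group), with the mean and SD of each group as bars. The open red diamond marks nPM female 1, which was the highest sample for all 9 genes.

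Among the receptors, Drd1 (ENSMUSG00000021478.5, chromosome 13, 54051186 to 54055658) was at 7.68, 7.07, 6.52, 4.76 and 3.20 CPM in control females 1 to 5 and at 31.5, 3.24, 3.92, 5.75 and 5.91 CPM in nPM females 1 to 5. It was at 13.3, 5.75, 12, 8.10 and 6.67 CPM in control males and at 7.08, 10.4, 6.19, 9.28 and 6.32 CPM in nPM males. The next samples below nPM female 1 were control males 1 and 3 and nPM male 2, and the ranges of all 4 groups overlapped. Drd2 (ENSMUSG00000032259.7, chromosome 9, 49340662 to 49407214) was at 0.960, 1.49, 2.84, 1.45 and 1.38 CPM in control females and at 7.27, 0.429, 0.798, 0.548 and 0.591 CPM in nPM females. In control males Drd2 was at 0.634, 0.964, 0.702, 1.67 and 0.922 CPM and in nPM males at 1.78, 1.92, 0.842, 1.44 and 1.33 CPM. Apart from nPM female 1, every nPM female was below every control female in Drd2, and 3 of these 4 had the lowest Drd2 of the 20 samples. These values rest on 9 to 91 counts per sample in the other 19 samples and 220 counts in nPM female 1.

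Adora2a (ENSMUSG00000020178.5, chromosome 10, 75316943 to 75334788) was at 0.768, 0.573, 0.593, 0.807 and 1.02 CPM in control females and at 13.0, 0.429, 0.729, 0.383 and 1.87 CPM in nPM females. Control males were at 0.447, 1.0, 0.738, 0.941 and 0.531 CPM and nPM males at 0.848, 2.15, 1.45, 1.52 and 0.998 CPM. The counts behind them were 7 to 67 in the other 19 samples and 393 in nPM female 1. After nPM female 1, the highest samples were nPM male 2, nPM female 5, nPM male 4 and nPM male 3.

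Of the peptide precursors, Penk (ENSMUSG00000045573.9, chromosome 4, 4133531 to 4138819) was at 11.9, 11.8, 16.3, 15.2 and 13.5 CPM in control females and at 92.8, 15.6, 14.4, 11.3 and 17.6 CPM in nPM females. Its levels in males were 13.5, 14.6, 14.4, 18.1 and 14.1 CPM in controls and 13.9, 22.2, 16.8, 17.5 and 15.6 CPM after nPM. Without nPM female 1, Penk stayed within a 1.96-fold range over 19 samples. It overlaps A830012C17Rik on the opposite strand, and no strand setting of the counting is given in the sources used here, so reads of the pair cannot be told apart. Tac1 (ENSMUSG00000061762.12, chromosome 6, 7554879 to 7565834) was at 10.5, 6.00, 3.24, 6.46 and 4.27 CPM in control females and at 19.0, 5.96, 3.37, 4.16 and 6.11 CPM in nPM females. In males it was at 8.47, 4.36, 7.57, 6.17 and 7.09 CPM in controls and at 13.5, 7.50, 5.46, 9.70 and 7.29 CPM after nPM. Its spread over the other 19 samples was 4.18-fold, with nPM male 1 and control female 1 at the top and control female 3 at the bottom, and the groups overlapped.

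Of the intracellular signalling genes, Ppp1r1b (ENSMUSG00000061718.12, chromosome 11, 98348404 to 98357796) was at 23.0, 19.4, 19.1, 20.5 and 19.9 CPM in control females and at 112, 20.03, 20.2, 13.5 and 29.5 CPM in nPM females. Control males were at 20.8, 44.3, 23.7, 61.8 and 36.7 CPM and nPM males at 17.9, 39.8, 51.8, 24.2 and 25.8 CPM. Control females lay close together, while control male 4 and nPM male 3 were above all samples but nPM female 1. Ppp1r1b overlaps 1700003D09Rik on the opposite strand. Rgs9 (ENSMUSG00000020599.13, chromosome 11, 109225355 to 109298129) was at 14.6, 11.8, 14.3, 10.2 and 10.9 CPM in control females, and nPM females were at 50.4, 13.6, 8.26, 13.0 and 13.7 CPM. Control males had 10.5, 8.89, 10.4, 10.4 and 11.1 CPM of Rgs9, and nPM males had 12.4, 13.8, 10.3, 8.70 and 8.65 CPM. All groups overlapped in Rgs9, and the other 19 samples stayed within a 1.77-fold range.

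Pde10a (ENSMUSG00000023868.15, chromosome 17, 8525372 to 8986648) had the most counts of the 9 genes, 1793 to 3358 in the other 19 samples and 7283 in nPM female 1. Its level was 88.4, 107, 104, 93.4 and 101 CPM in control females and 241, 93.9, 96.2, 98.2 and 84.0 CPM in nPM females. In control males it was 83.2, 71.4, 82.9, 71.7 and 74.7 CPM and in nPM males 82.8, 95.1, 91.9, 87.5 and 84.6 CPM. The other 19 samples lay within a 1.5-fold range. Gm15425, Gm17087 and Gm15426 lie on the opposite strand within Pde10a.

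Six3 (ENSMUSG00000038805.10, chromosome 17, 85613608 to 85629302) was the rarest of the 9 genes, with no counts in 5 samples. The upper limit for those is 3 counts, which was 0.104 to 0.164 CPM at their depth and covers counting error only. Control females had 0.0320, 0.153, 1.90, 0.306 and 0.133 CPM of Six3, and nPM females had 1.92, 0, 0, 0 and 0.624 CPM. In control males it was at 0, 0.822, 0, 1.23 and 0.307 CPM and in nPM males at 0.610, 0.513, 0.465, 0.221 and 0.151 CPM. Control female 3, with 61 counts, was within 1.01-fold of nPM female 1, with 58 counts, and control male 4 followed with 47 counts. Six3 shares its position with 5 other genes on the same strand and with Six3os1 and Gm28528 on the opposite strand.

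Further genes known for striatal expression were compared in the same way. Of 25 such genes, 14 were highest in nPM female 1, and 9 of these were over 2-fold the median of the other 19 samples, each with 0.1 CPM added. Both held together in 2.43% of all tested genes. The share of all genes that were highest in this sample was not computed. Gpr6, an orphan receptor, was at 5.59 CPM against a median of 0.779 and a maximum of 1.89 CPM in the other 19 samples. Adcy5, the main adenylyl cyclase of the striatum, was at 173 CPM against a median of 86.0 and a maximum of 105 CPM, and Pdyn, the dynorphin precursor, at 26.4 against 10.9 and 13.7 CPM. The other genes over 2-fold were Rxrg, Ido1, Scn4b, Syndig1l, Actn2 and Rarb. Others were above the range of the 19 samples by less, such as Gng7 at 121 CPM (other samples 40.9 to 93.9), Pde1b at 155 CPM (67.2 to 106) and Rasd2 at 45.5 CPM (13.3 to 40.6). Foxp1 at 89.3 CPM (62.5 to 113), Bcl11b at 164 CPM (98.6 to 172) and Chrm4 at 7.01 CPM (4.15 to 9.40) were among those within it.

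**Figure D2:**
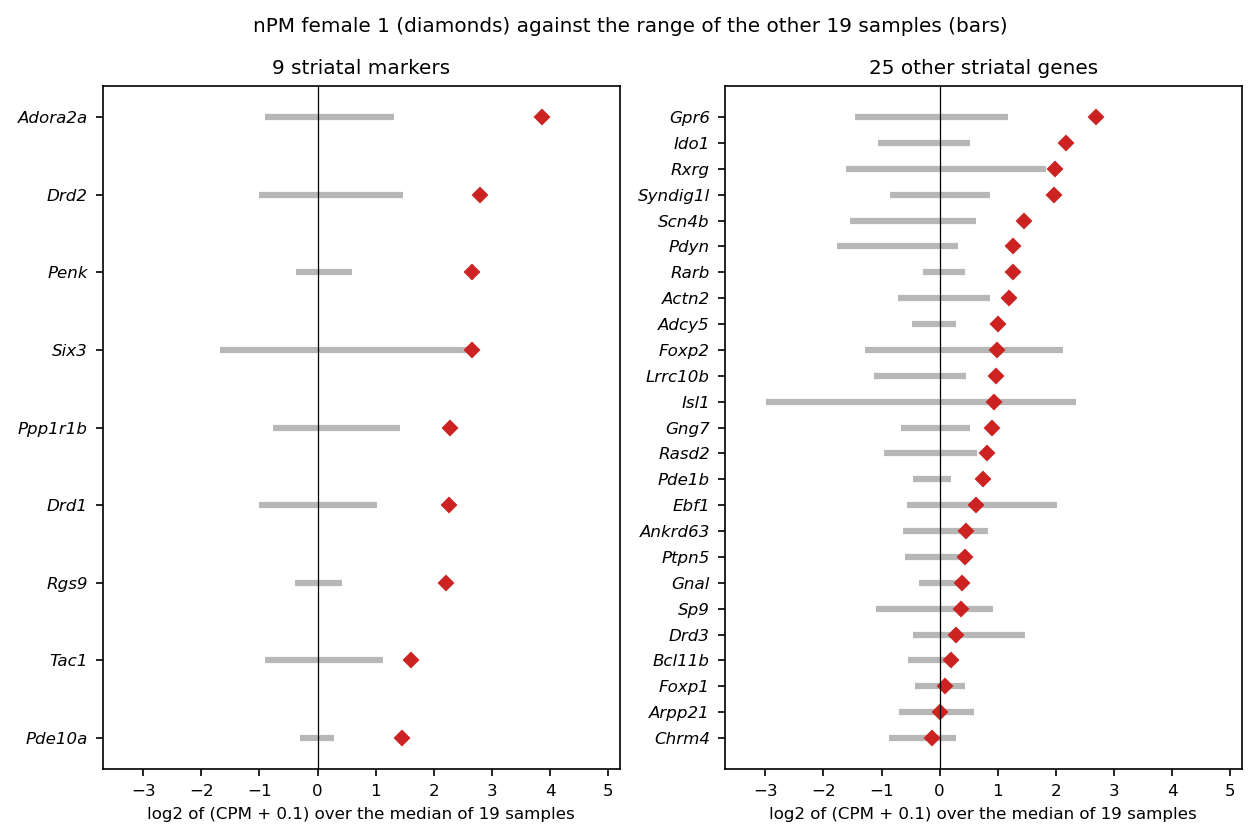
Log2 of CPM, with 0.1 added, over the median of the other 19 samples (x axis) in nPM female 1 (diamonds) for the 9 markers and for 25 other striatal genes (y axis). Grey bars span the other 19 samples; the diamond lies beyond the bar for all 9 markers, in Six3 by a fold of 1.01, and for 14 of the other 25 genes.

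Other tissue markers in nPM female 1 did not all move with the striatal genes. Of 12 choroid plexus genes, 10 were highest in this sample and over 2-fold the median of the others, and the summed level of the 12 was 8835 CPM. Ttr, the transthyretin gene that choroid plexus makes in large amounts, was at 7409 CPM against a median of 233 CPM. The choroid plexus sum was also high at 7791 CPM in control male 4, 6004 CPM in nPM male 3 and 5354 CPM in control male 2, which had the next highest Ppp1r1b after nPM female 1. The summed CPM of the 9 striatal markers was 569 in nPM female 1. It was 180 in control male 4, 185 in nPM male 3 and 152 in control male 2. The range over the 19 samples other than nPM female 1 was 147 to 193. Pde10a made up the largest part of this sum, so the sum says little about the rarer markers, whose levels are given above. In these males, in the same order, Pde10a was at 71.7, 91.9 and 71.4 CPM and Ppp1r1b at 61.8, 51.8 and 44.3 CPM. The septal sum (9 genes) was 97.9 CPM in nPM female 1, inside the range of the others (11.4 to 161). In the lists for thalamus, neocortex, CA1, interneurons, oligodendrocytes, astrocytes, microglia, endothelium, meninges, ependyma, blood and immediate early genes, 0 genes were highest in nPM female 1 and over 2-fold. In the dentate gyrus list this held for Lct, and in the septal list for Crhr2 and Chat. The dentate gyrus sum of nPM female 1, 647 CPM, was the highest of the 20 samples, and its neocortex sum, 184 CPM, was the lowest. Whether tissue carried over at dissection gave the levels of nPM female 1 was not tested.

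The spread of each marker was compared with that of all genes by edgeR's biological coefficient of variation (BCV) within groups. Over 20 samples the BCV of 7 of the 9 genes was above the 90th percentile of 19797 genes, with Rgs9 at percentile 86.4 and Pde10a at 62.8. BCV was 1.38 for Six3, 0.717 for Adora2a, 0.640 for Drd2, 0.509 for Drd1, 0.482 for Ppp1r1b, 0.440 for Penk, 0.427 for Tac1, 0.361 for Rgs9 and 0.223 for Pde10a, against a median of 0.175. Without nPM female 1, 1 gene was above the 90th percentile, namely Six3 with a BCV of 1.29. Pde10a then was at 0.0864, Penk at 0.155 and Rgs9 at 0.176, which are percentiles 5.22, 43.9 and 50.5. The other 5 had BCV between 0.287 (Drd1) and 0.377 (Adora2a), at percentiles 76.4 to 88.2. BCV is higher for genes with few counts. Against the trend of BCV at the same abundance, Six3 (trend 0.399), Ppp1r1b (0.159), Tac1 (0.245) and Drd1 (0.242) were above it over 19 samples, Adora2a was close to it (0.364), and Drd2 (0.350), Penk (0.183), Rgs9 (0.204) and Pde10a (0.134) were below it.

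The 9 genes were then compared in pairs across samples. Over 20 samples all 36 pairs had a positive Pearson r, with a median of 0.58, and 23 pairs had an adjusted p under 0.05 (100000 permutations, two-sided, Benjamini-Hochberg over 36 pairs). The highest r was 0.900, between Adora2a and Penk (adjusted permutation p = 0.00144). The first principal component held 62.9% of the variance, and its score was 9.25 in nPM female 1 and between -2.19 and 1.79 in the other samples. Spearman's rho, which depends less on 1 extreme sample, had an adjusted p under 0.05 in 6 pairs, with a median of 0.25. With the 2 samples farthest from the median of the first gene of a pair left out, 0 pairs passed by r.

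Without nPM female 1, 26 of 36 pairs were positive, the median r was 0.11 and the first component held 35.7% of the variance. Both pairs that passed were positive. Adora2a and Penk, which the same medium spiny neurons express, had r = 0.717 (adjusted permutation p = 0.0155) and rho = 0.605 (adjusted p = 0.0583), with r = 0.487 in 9 females and 0.854 in 10 males. Drd2 and Six3 had r = 0.685 (adjusted permutation p = 0.0265) and rho = 0.611 (adjusted p = 0.0583), with r = 0.683 in females and 0.688 in males. With the 2 farthest samples also left out, r was 0.552 for the first pair and 0.564 for the second. Drd2, of the same neuron class as Adora2a and Penk, had r = 0.309 with Adora2a and 0.312 with Penk (adjusted permutation p = 0.507 for both). By rho, 1 pair passed, Drd1 and Tac1, the D1 class genes, with rho = 0.719 (adjusted permutation p = 0.0277) and r = 0.544 (adjusted p = 0.0934). With values centred on the group means, 19 of 36 pairs were positive, the median r was 0.01 and 4 pairs passed, all positive. These included Adora2a with Ppp1r1b (r = 0.665) and with Penk (r = 0.649), both at adjusted permutation p = 0.0373. The others were Drd2 with Six3 (r = 0.620) and Ppp1r1b with Penk (r = 0.613), both at adjusted permutation p = 0.0492. Drd1 and Tac1 had a centred r of 0.396 (adjusted permutation p = 0.303). The most negative pair was Ppp1r1b and Pde10a, at r = -0.61 (adjusted permutation p = 0.0536). Relations seen over 20 samples between Drd1 and Adora2a (r = 0.603) and between Rgs9 and Pde10a (r = 0.858) rested on nPM female 1 and were 0.134 and 0.326 without it.

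**Figure D3:**
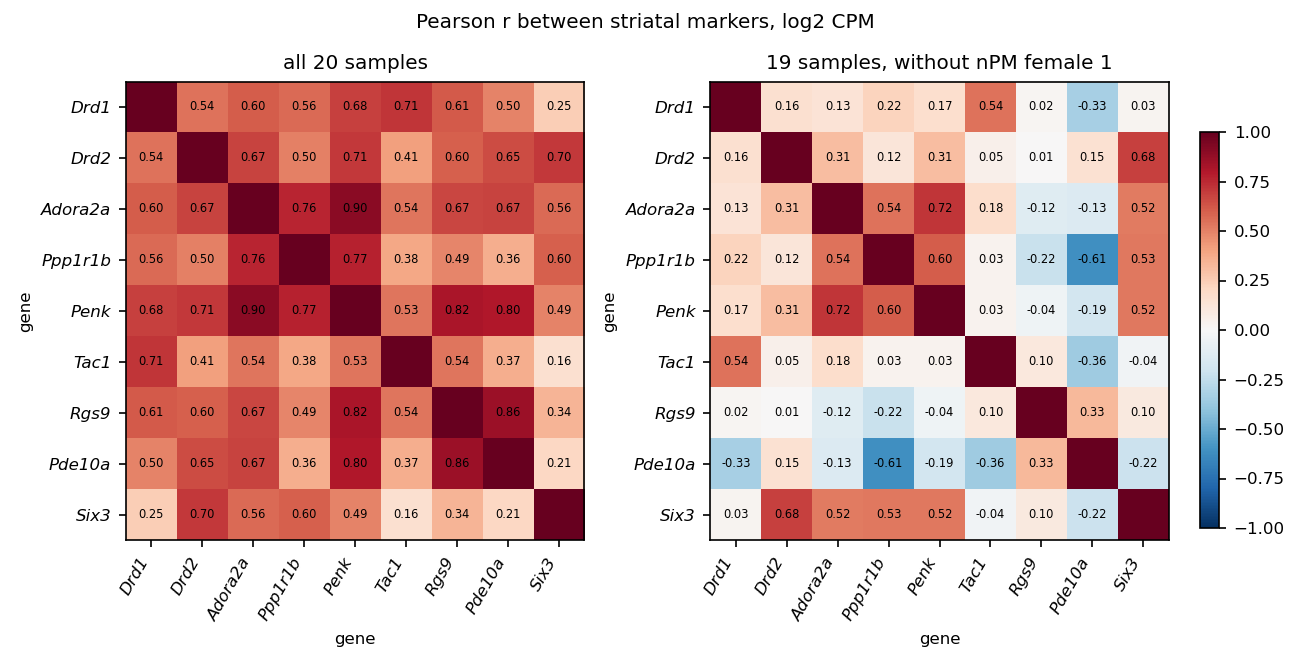
Pearson r of log2 CPM between each pair of the 9 striatal markers (both axes), over 20 samples on the left and over 19 samples without nPM female 1 on the right. Colour runs from -1 (blue) to 1 (red); all 36 pairs were positive on the left and 26 on the right.

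Over the 19 samples, each of the 9 genes was also set against the summed CPM of 17 marker lists, a comparison added after the data had been seen. Of 153 relations, 10 had an adjusted permutation p under 0.05 by r, and 9 of these also by rho. Six3 rose with the septal list, whose sum came mostly from Zic1, Zic2 and Zic4. It had r = 0.866 and rho = 0.809 (adjusted permutation p = 0.00153 and 0.00408), and r was 0.893 in females and 0.874 in males. Drd2 rose with the same list with r = 0.787 and rho = 0.789 (adjusted permutation p = 0.00204 and 0.00459), with 0.869 in females and 0.705 in males. Ppp1r1b rose with the choroid plexus list with r = 0.868 and rho = 0.716 (adjusted permutation p = 0.00153 and 0.0160), with 0.558 in females and 0.924 in males. Six3 had r = 0.819 with the ependymal list (adjusted permutation p = 0.00153), and Ppp1r1b had r = 0.799 with it, which did not pass by rho (0.574, adjusted permutation p = 0.105), and 0.772 with the meningeal list. Six3 also had r = 0.692 with oligodendrocyte genes and 0.680 with choroid plexus genes, and both passed by r and by rho. Left out, the 2 samples farthest from the median of the list gave r = 0.848 for Six3 and 0.796 for Drd2 with the septum, and 0.810 for Ppp1r1b with choroid plexus. Drd1 had r = 0.653 with 12 interneuron genes and -0.66 with 6 endothelial genes, but with values centred on groups these were 0.502 and -0.25 (adjusted permutation p = 0.146 and 0.544). For Adora2a, Penk, Tac1, Rgs9 and Pde10a, 0 relations passed by r of the values as measured. By rho, Tac1 passed with interneurons (rho = 0.763) and endothelium (-0.68) and Pde10a with astrocytes (-0.67), none of which passed by r centred on groups. By centred r, Penk passed with septum (0.708), Adora2a with endothelium (0.697) and Rgs9 with CA1 (-0.65), none of which passed by rho.

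**Figure D4:**
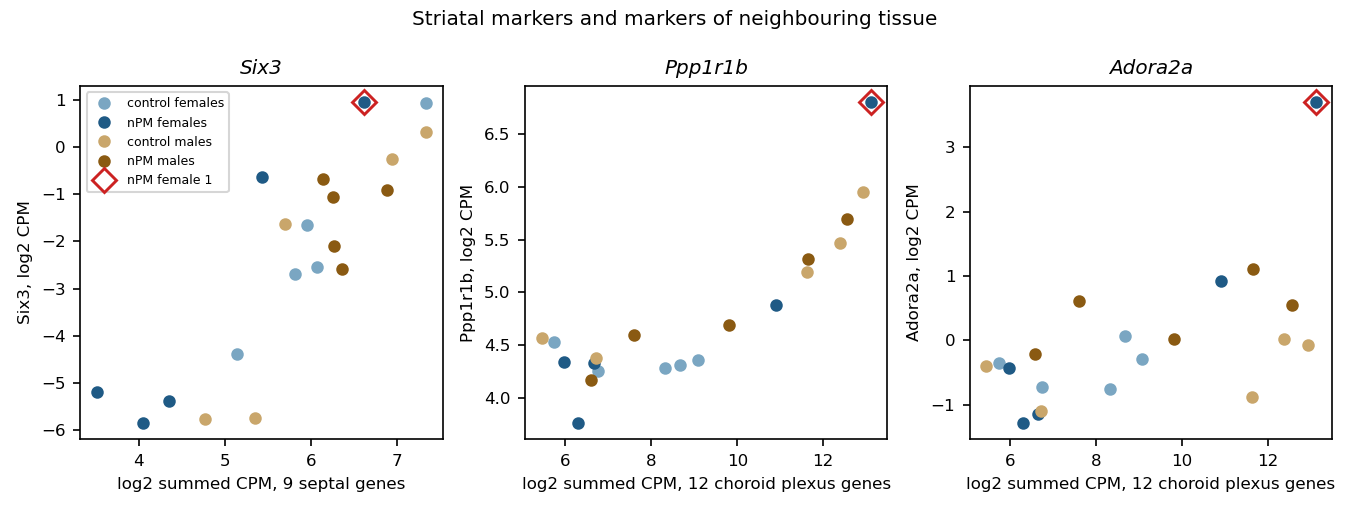
Log2 CPM of Six3, Ppp1r1b and Adora2a (y axes) against the log2 summed CPM of 9 septal or 12 choroid plexus genes (x axes) in the 20 samples, coloured by group. Six3 rose with the septal sum and Ppp1r1b with the choroid plexus sum over 19 samples; in Adora2a, nPM female 1 (open diamond, 13.0 CPM) was far above samples with similar choroid plexus sums.

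Gestational nPM was tested by limma-voom across all 19797 genes, at the study's threshold of p under 0.005. With both sexes and sex as a covariate, 0 of the 9 genes passed, where 28 of all genes did, or 0.141%. In males 0 passed, against 41 genes or 0.207%, and in females 0, against 18 genes or 0.0909%. The interaction of sex and nPM passed in 0 of the 9, against 43 genes or 0.217%. At an unadjusted p under 0.05, 2 of the 9 genes passed in males, Adora2a and Pde10a, where 4.28% of all genes did, and neither of them passed with 1 fit of the 4 groups. In the other 3 fits 0 of the 9 passed, where 2.1% of all genes did with both sexes, 1.99% in females and 3.79% in the interaction. edgeR's quasi-likelihood test called 0 in all 4, and the DESeq2 Wald test called 1 with both sexes, Adora2a, and 0 in the other 3. The DESeq2 call of Adora2a included nPM female 1 and was not repeated without it. DESeq2 gave no p for some of the 9, among them Drd1, Drd2 and Penk in females. Penk with both sexes and Drd2 in the interaction also had none, so its counts do not cover these. No gene of the table had an adjusted p under 0.05 in these 4 limma fits.

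With both sexes, the limma log2 fold changes (nPM minus control) of the 9 genes were above 0, from 0.03 in Drd2 to 0.92 in Adora2a with a median of 0.20, although Six3 was below 0 by edgeR and DESeq2 and Drd1, Drd2 and Six3 were below 0 with sample quality weights. nPM female 1 entered every one of them. Adora2a had a standard error (SE) of 0.47 and a limma p of 0.0620 (exact permutation p = 0.0787, exposure permuted within sex). Penk was at 0.43 (SE 0.26, limma p = 0.119 and exact permutation p = 0.0798) and Pde10a at 0.20 (SE 0.13, limma p = 0.138 and exact permutation p = 0.128). Left out, that sample took these to 0.55, 0.15 and 0.06. Drd1 (-0.22), Drd2 (-0.22), Ppp1r1b (-0.15), Rgs9 (-0.0098) and Six3 (-0.07) were then below 0, and 0 of the 9 passed, against 27 of 20018 genes or 0.135%.

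In males, which do not include that sample, the largest statistics were in Pde10a and Adora2a. Pde10a had a log2 level of 6.26 ± 0.11 (SD, n = 5) in controls and 6.46 ± 0.083 after nPM. The log2 fold change was 0.21 with SE 0.067 (p = 0.00998 by limma, 0.963 after adjustment, and 0.0238 by the exact permutation test), and nPM male 1 lay below the top 2 controls. Adora2a was at -0.48 ± 0.49 in control males and 0.42 ± 0.52 in nPM males, with a fold change of 0.88 and SE 0.32 (p = 0.0165 by limma, 0.963 after adjustment, and 0.0397 by the exact permutation test). nPM males 1 and 5 lay among the controls. The choroid plexus and septal sums overlapped between these groups, at 43.6 to 7791 and 27.2 to 161 CPM in control males and 96.2 to 6004 and 70.2 to 117 CPM in nPM males. The other 7 genes had fold changes from -0.25 (Ppp1r1b) to 0.99 (Six3, SE 1.05), and 5 samples against 5 allow no exact p below 0.00794.

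In females the fold changes depended on nPM female 1. With it, 7 of the 9 fold changes were above 0, the highest being Adora2a at 0.96 (SE 0.83, exact permutation p = 0.563), Penk at 0.70 (SE 0.48, exact permutation p = 0.286) and Ppp1r1b at 0.55 (SE 0.44, exact permutation p = 0.532), and the limma p of these 3 were 0.267, 0.167 and 0.236. Rgs9 was at 0.42, Drd1 at 0.33, Pde10a at 0.21, Tac1 at 0.20, Drd2 at -0.54 and Six3 at -1.0 (SE 1.35). Left out, nPM female 1 took the values to 0.05 in Adora2a, 0.11 in Penk and 0.02 in Ppp1r1b, and below 0 in Rgs9 (-0.05), Drd1 (-0.30), Pde10a (-0.08) and Tac1 (-0.25). Drd2 then was at -1.34 and Six3 at -2.13 (SE 1.34, limma p = 0.140, exact permutation p = 0.175). The SE of Pde10a went from 0.24 to 0.084 and that of Penk from 0.48 to 0.15.

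**Figure D5:**
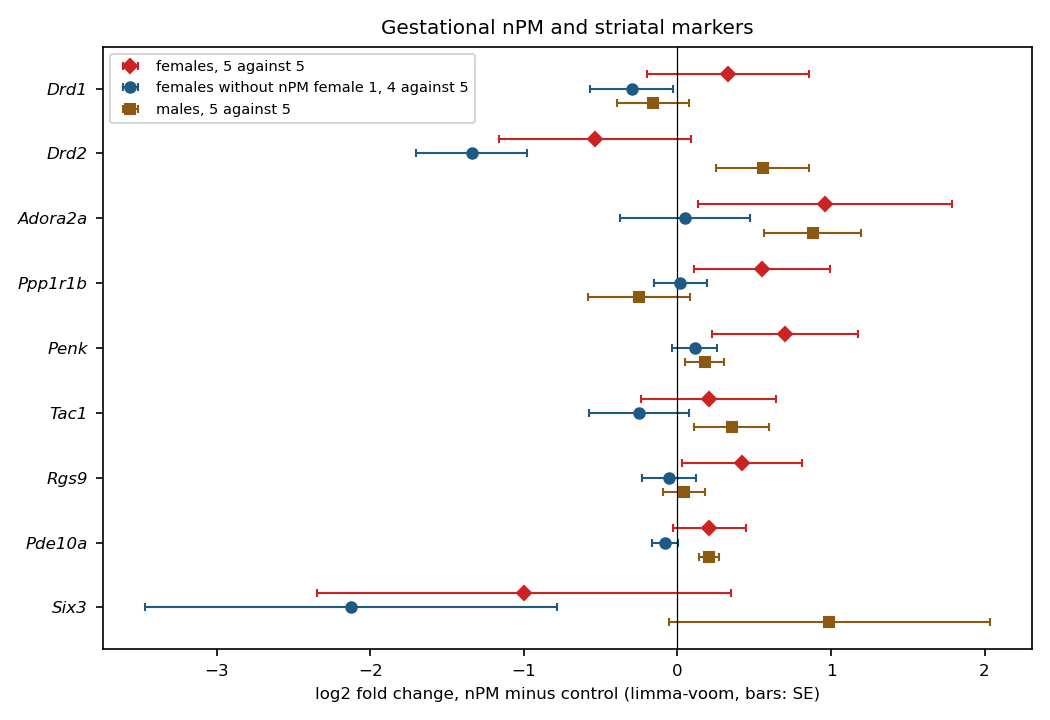
Log2 fold change of each striatal marker (nPM minus control, x axis, limma-voom, bars are SE) in females with all 10 samples (red), in females without nPM female 1 (blue) and in males (brown). Leaving out nPM female 1 moved all 9 female values to the left, and Drd2 to -1.34.

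Drd2 was the only one of the 9 that passed in females without nPM female 1. That sample was left out for its high levels in these genes, Drd2 included, which lowers the mean of the nPM females. The p-values without it are therefore descriptive. The log2 level of Drd2 was 0.62 ± 0.56 (SD, n = 5) in control females and -0.74 ± 0.35 (SD, n = 4) in the other nPM females, which did not overlap. The fold change of -1.34 had SE 0.36, with p = 0.00315 by limma, 1.0 after adjustment and 0.0159 by the exact permutation test of 5 against 4 samples. Of 20018 genes, 39 passed, or 0.195%. In males Drd2 had a fold change of 0.56 (SE 0.30, limma p = 0.0902, exact permutation p = 0.103). The interaction of sex and nPM was 1.10 (SE 0.74, limma p = 0.153, exact permutation p = 0.147) in all samples. Over the 19 other samples it was 1.89 with SE 0.49 (p = 0.00110 by limma, 0.994 after adjustment, and 0.00139 by the exact permutation test), where 50 genes or 0.25% passed, and Drd2 was again the only one of the 9. The septal sum that Drd2 varied with was also low in these samples, at 20.4, 16.6, 11.4 and 43.1 CPM in nPM females 2 to 5, against 35.2 to 161 in control females. Zic1, a transcription factor gene of the septal list, had a fold change of -1.44 in all females (SE 0.58, limma p = 0.0285, exact permutation p = 0.0714). Its interaction over all samples was 1.81 (SE 0.79, limma p = 0.0327, exact permutation p = 0.0511). Without nPM female 1, the difference in mean log2 level of Zic1 was -2.08 in females (exact permutation p = 0.0238). The interaction of Zic1 was then 2.47 (exact permutation p = 0.0139). The part of the septal sum and of Zic1 in the Drd2 result was not tested. No defining septal gene was at 0 throughout, and Chat was at 0.397 CPM or less in every sample. Over the 19 other samples, Zic1, Zic2 and Zic4 had medians of 44.0, 9.52 and 7.52 CPM. Chat, Lhx8, Gbx1, Slc18a3 and Nkx2-1 had medians of 0.111 CPM or less there and did not pass the filter. The septal sum thus mostly reflects the Zic genes.

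The sexes were compared with exposure as a covariate. Of all genes, 6147 or 31.1% passed p under 0.005, and 0 of the 9 markers did, with 1 at an unadjusted limma p under 0.05, where 48.4% of all genes were. Pde10a was lower in males by 0.36 on the log2 scale (males minus females -0.36) with SE 0.13, and p was 0.0114 by limma, 0.0313 after adjustment and 0.000787 by the exact permutation of sex within exposure. Rgs9 had -0.45 (SE 0.23, limma p = 0.0598, exact permutation p = 0.0410) and Drd1 0.35 (SE 0.29, limma p = 0.241, exact permutation p = 0.243). Over the 19 other samples, 2 of the 9 passed, where 6223 genes or 31.1% did. As nPM female 1 was left out for its levels in these genes, the p-values over 19 samples are descriptive. Pde10a was at -0.22 with SE 0.058 (p = 0.00113 by limma, 0.00498 after adjustment, exact permutation p = 0.00180), and Drd1 at 0.66 with SE 0.19 (p = 0.00230 by limma, 0.00868 after adjustment, exact permutation p = 0.00387). Ppp1r1b was at 0.67 with SE 0.22 (p = 0.00548 by limma, 0.0173 after adjustment, exact permutation p = 0.0110), and Rgs9 at -0.20. A count of 2 of 9 is a share near that of all genes.

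Other genes of the same pathways were read from the same fits. Of 26 dopamine and cAMP signalling genes, 24 were tested, and 0 passed with both sexes, in males, in females or in the interaction (median log2 fold change -0.01, 0.00 and 0.01 in the first 3). Between the sexes 9 of the 24 passed, 8 higher in males and 1 lower, a share near the 31.1% of all genes. Creb1, the cAMP-responsive transcription factor, was higher in males by 0.35 (SE 0.051, limma p = 8.59e-07, exact permutation p = 0.000157), Gnai1, an inhibitory G protein subunit, by 0.42, and Prkar2b, a regulatory subunit of protein kinase A, by 0.46. Adcy9, an adenylyl cyclase, was lower in males by 0.36 (males minus females -0.36). The others were Prkacb, Pde4b, Cdk5, Ppp1ca and Maoa. Of 10 peptide processing and receptor genes 0 passed in any of the 5 fits. Of the 24 tested genes in the further striatal list, 1 passed with both sexes and in males, where 0.141% and 0.207% of all genes did. This was Bcl11b, a transcription factor that cortex and hippocampus also express. It was higher with both sexes by 0.23 (SE 0.071, limma p = 0.00428, 0.9998 after adjustment, exact permutation p = 0.00655). In males it was higher by 0.37 (SE 0.084, limma p = 0.000811, 0.963 after adjustment, exact permutation p = 0.00794). In females its mean log2 level was higher by 0.078 (exact permutation p = 0.468), and the interaction was 0.30 (limma p = 0.0332, 0.987 after adjustment). Without nPM female 1, the difference with both sexes was 0.21 (exact permutation p = 0.0149). Between the sexes 1 of these 24 passed, a share below the 31.1% of all genes. It was Gng7, a G protein subunit, which was lower in males (males minus females -0.43, SE 0.12, limma p = 0.00243, 0.0091 after adjustment, exact permutation p = 0.00664). Without nPM female 1, where Gng7 was highest, the difference in mean log2 level was -0.36 (exact permutation p = 0.0155).

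The genes outside the 9 whose levels most resembled theirs over 20 samples, by mean Pearson r to the 9, were Rarb (0.673), Pde1b (0.636), Gpr6 (0.632), Slc35d3 (0.618), Cyb5rl (0.605), Syndig1l (0.601), Adcy5 (0.599), Ido1 (0.593), Prkch (0.583) and Cfap69 (0.581). Each was highest in nPM female 1, which weighs heavily in r over 20 samples, so the ranking favours such genes. Of these genes, 6 were on the list of further striatal genes, whose levels in that sample are given above. The overlap is therefore not separate evidence. Over the 19 other samples the highest mean r was 0.401, in Slc30a6, and Zic4 and Zic1, of the septal list, were among the first 10, with 0.369 and 0.360.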

How the data were processed

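RNA-seq libraries of the right hippocampus (RiboZero Gold) were made by the authors, who used HISAT2 for alignment (mm10) and featureCounts 1.5.0-p3 on Gencode M11 for counting, and whole-number counts were deposited. The deposited mean RPKM per gene was recomputed from the counts (largest difference 4.91e-11) and used in no test. Groups came from the sample labels. The filter on low counts was edgeR's filterByExpr over 4 groups (minimum count 10, minimum total 15). Counts were scaled by TMM (edgeR 4.0.16; factors 0.958 to 1.06; recomputed within a sex for fits of 1 sex) and fitted by limma-voom (limma 3.58.1, R 4.3.3), two-sided, with Benjamini-Hochberg adjustment over all genes tested. Fits and pairwise correlations were tested on simulated data. Between samples of a group, squared differences were 14.2 to 77.5 times counting noise (40 pairs). The labels do not say which mice shared a litter, so p-values measure the spread between these samples. Same-numbered samples were checked for pairing (r of their deviations from -0.36 to 0.157, over 0.1 in 3 of 10), and the numbers do not pair them. Single genes were also tested by exact permutation of log2 CPM. Alternatives tried were DESeq2 1.42.0 (Wald test), edgeR's quasi-likelihood test, RLE scaling, other filters, robust moderation, quality weights, age, a replicate block, 1 fit of 4 groups and each sample left out. The 9 genes, the marker lists and the genes named (all members, list genes past the threshold, and the 10 most alike genes) were chosen with earlier results of these data known. List genes shown beside nPM female 1 were chosen after their values were seen, as were Zic1 and the resembling genes over 19 samples. A gene of the further striatal list and a resembling gene are not reported here.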

Additional observations from a re-analysis of the deposited data

Results flagged for a closer look

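Dixon's ratio is the gap of the highest or lowest sample to its neighbour over the range of the group. It was computed on log2 CPM, so the CPM given below do not reproduce it. In 36 sets of 5 values (9 genes in 4 groups), it was above the 95% critical value of 0.71 in 7. Chance gives about 1 in 20 for a single set. The 36 sets are not independent, as the genes share samples, and nPM female 1 had been picked by these levels. The count is therefore a description only. nPM female 1 was the high sample in 5 of the 7, in Pde10a (ratio 0.851), Penk (0.790), Drd2 (0.788), Drd1 (0.737) and Rgs9 (0.721). In these genes it had 241, 92.8, 7.27, 31.5 and 50.4 CPM, where the next nPM female had 98.2, 17.6, 0.798, 5.91 and 13.7 CPM. In control males, Penk was high in sample 4 (ratio 0.721), at 18.1 CPM against 14.6 CPM in the next, and Rgs9 was low in sample 2 (ratio 0.725), at 8.89 CPM against 10.4 CPM.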

How the results depend on the processing

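Over the 5 fits, 391 member values were computed under alternatives other than leaving out a sample, and 23 changed sign, with no p below 0.561 among them, and 5 newly passed p under 0.005. Over the leave-one-out fits, 53 of 720 changed sign and 6 newly passed. The number of the 9 genes past the threshold became 1 with both sexes in the DESeq2 Wald test (Adora2a, 1.54). In males it became 1 without a filter (Pde10a, 0.21) and with quality weights (Pde10a, 0.24), and 1 with the replicate block (Adora2a, 0.90), which changed no call in the other fits and gave 31 correlated pairs. Between the sexes it was 1 with DESeq2 (Pde10a, -0.42). When a sample was left out, it ranged from 0 to 1 in males (1 without control male 1), in females and in the interaction (1 without nPM female 1), and from 0 to 2 between the sexes (2 without nPM female 1, 1 without nPM female 5). In females, the sign changed for Drd2 in edgeR (0.30), for Six3 in edgeR (0.0797) and DESeq2 (0.0374) and for Drd1 with quality weights (-0.10). Leave-one-out values ranged from -0.30 to 0.56 for Drd1, from -0.25 to 0.46 for Tac1 (below 0 also without control female 3), from -0.0533 to 0.68 for Rgs9 and from -0.0815 to 0.32 for Pde10a. The number of genes with BCV above the 90th percentile was 1 without a filter, since genes with few counts then enter the background, and ranged from 1 to 7 with a sample left out. Correlated pairs numbered 6 by Spearman's rho, 0 without the 2 samples farthest from the median, and 2 to 26 with a sample left out (2 without nPM female 1, 11 without nPM male 2). Without nPM female 1 there were 4 pairs with values centred on groups and 1 by Spearman's rho. Over the 19 samples other than nPM female 1, Drd2, Adora2a and Six3 had under 100 counts in every sample.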
